A study of Mus musculus with 16 samples.

Results

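The 33 genes described here mark neutrophils and their bone marrow precursors, among them granule proteins, maturation factors, surface receptors and inflammatory proteins. They were taken from a fixed list of symbols, and each gene was read from a probe set annotated to that gene only. That gave values for 31 of the 33 genes, out of 19938 genes measured in the series, with 1 probe set for each of the 31. Expression of Fpr1 and Fpr2, receptors for formylated bacterial peptides, was not analysed here.

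The series measured expression on 16 mouse arrays and addressed heterozygous loss of Bank1 in B cell precursor leukemia on a Pax5-deficient background. Of these, 6 arrays hold leukemic bone marrow cells of Bank1+/- + Pax5+/- mice (Bank1Pax5 leukemia), 6 hold leukemic bone marrow cells of Pax5+/- mice (Pax5 leukemia), and 4 hold pro-B and pre-B cells of wild-type mice (WT precursors). Both leukemia groups carry the heterozygous Pax5 allele, and all mice lived in a conventional facility with exposure to common pathogens. The leukemic samples are labelled as total bone marrow and the WT samples as a B cell precursor fraction, so the groups differ in tissue fraction as well as in disease. The sources used here give neither the isolation of that fraction nor the age, sex and strain of the mice. A cell type label on the WT arrays names leukemic cells and contradicts the other labels of these arrays, which were followed. The design text speaks of 3 WT mice, but 4 WT arrays have replicate numbers of their own and each counted as a sample. Arrays that share a mouse can therefore not be excluded. In that case p-values, SEs and counts without overlap against WT precursors rest on fewer independent samples than counted. Pairs of arrays correlated over all genes with r between 0.944 and 0.987 in Bank1Pax5 leukemia, between 0.968 and 0.982 in Pax5 leukemia, and between 0.992 and 0.995 in WT precursors. Values are log2 probe set intensities, and a level under 6.96, the median of all probe sets annotated to 1 gene, is called dim below. Probe sets differ in brightness, so levels are compared between arrays for a gene and not between genes.

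Neutrophils form in the bone marrow through an ordered series of stages, and each stage makes its own granule proteins. Promyelocytes fill primary (azurophil) granules with myeloperoxidase and serine proteases, myelocytes fill secondary (specific) granules with lactoferrin and antimicrobial peptides, and later cells make gelatinase granules, chemokine receptors and the S100 proteins of the cytosol. C/EBP factors, GFI1 and signals through the G-CSF receptor drive this sequence. Pax5, the B lineage commitment factor, is known to repress genes of other lineages in B cells. In bulk samples such as these, fewer cells of a type and less RNA per cell cannot be told apart.

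Neutrophil gene levels differed widely between arrays of the same group, in both leukemias and in WT precursors. The median level of the 31 genes lay at 11.53 and 11.75 on arrays 1 and 5 of Bank1Pax5 leukemia and at 7.16 to 9.04 on the other 4 arrays of that group. In Pax5 leukemia it lay at 10.60 and 10.39 on arrays 3 and 6 and at 6.90 to 8.55 on the other 4. In WT precursors it was 8.67, 8.36, 7.10 and 6.71 on arrays 1 to 4. The 4 arrays with the highest values were Bank1Pax5 arrays 1 and 5 and Pax5 arrays 3 and 6 for 25 of the 31 genes. The 6 genes that departed from this were Cebpa, Gfi1, Ctsg, Mmp9, Il1b and Ptgs2. The median SD of the 31 genes was 1.82 log2 in Bank1Pax5 leukemia, 1.68 in Pax5 leukemia and 0.845 in WT precursors, against 0.18, 0.159 and 0.0866 over all genes. Of the 31 genes, 28, 28 and 27 had an SD above the 95th percentile of all genes in these groups, in the same order.

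**Figure D1:**
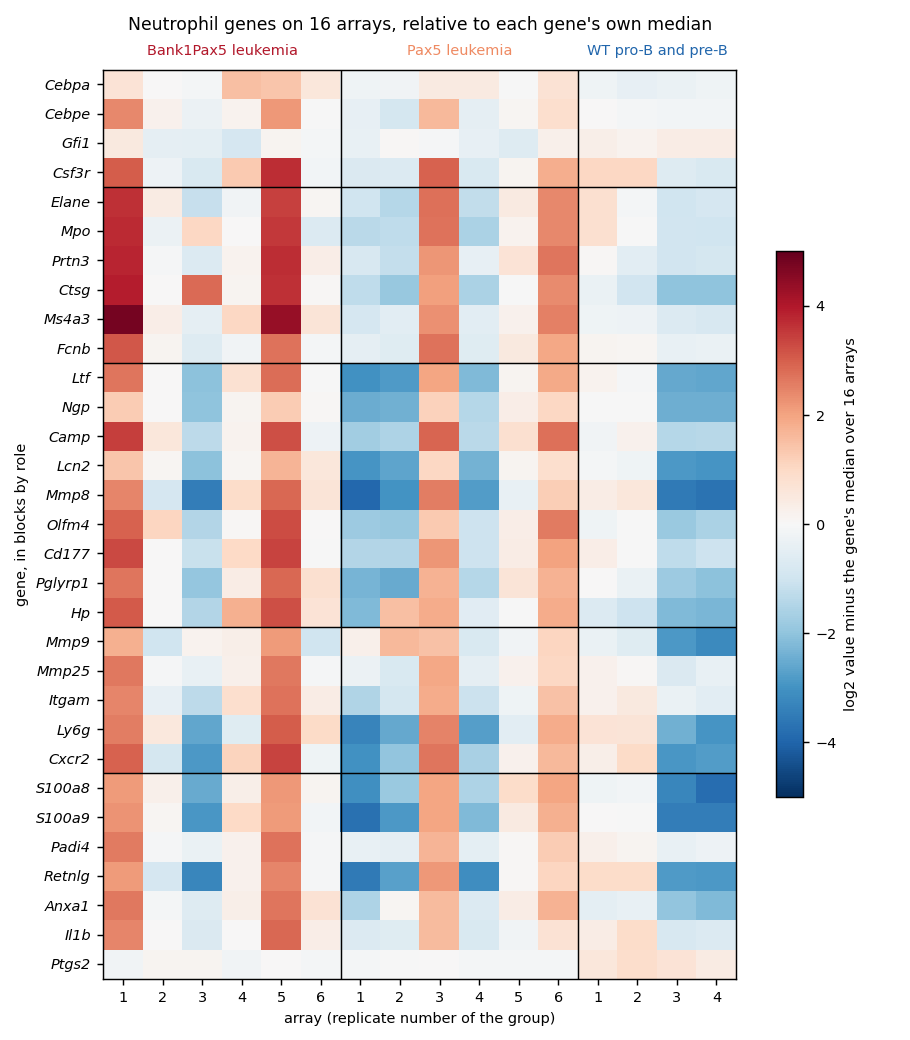
Heat map of 31 neutrophil genes (rows, in blocks by role from transcription factors at the top to late inflammatory genes at the bottom) on 16 arrays (columns, by group and replicate number). Colour gives the log2 value minus that gene's own median over the 16 arrays. Bank1Pax5 arrays 1 and 5 and Pax5 arrays 3 and 6 are red through nearly all rows. Bank1Pax5 array 3, Pax5 arrays 1, 2 and 4 and WT arrays 3 and 4 are blue in most secondary granule and late rows, with Hp and Mmp9 on Pax5 array 2 among the exceptions.

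Primary granule, secondary granule and late genes were high and low on much the same arrays. Primary granule and promyelocyte genes had median levels of 11.58 and 11.41 on Bank1Pax5 arrays 1 and 5, of 10.08 and 10.33 on Pax5 arrays 3 and 6, and of at most 8.12 on the other 12 arrays. Secondary granule genes lay at 12.36 and 12.14 on those Bank1Pax5 arrays and at 11.70 and 11.54 on those Pax5 arrays. They were also at 9.45, 10.21 and 9.79 on Bank1Pax5 arrays 2, 4 and 6, at 9.71 on Pax5 array 5, and at 9.53 and 9.50 on WT arrays 1 and 2. On those 6 arrays the primary granule level lay between 7.26 and 8.12, against 6.46 to 7.01 on the 6 arrays with the lowest secondary granule level. The lowest secondary granule levels were 7.59 on Bank1Pax5 array 3, 6.93, 7.31 and 7.69 on Pax5 arrays 1, 2 and 4, and 7.36 and 7.33 on WT arrays 3 and 4. The late cytosolic and inflammatory genes followed the secondary granule genes, with 9.44, 10.19 and 10.23 on Bank1Pax5 arrays 2, 4 and 6 and 10.26 on Pax5 array 5.

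**Figure D2:**
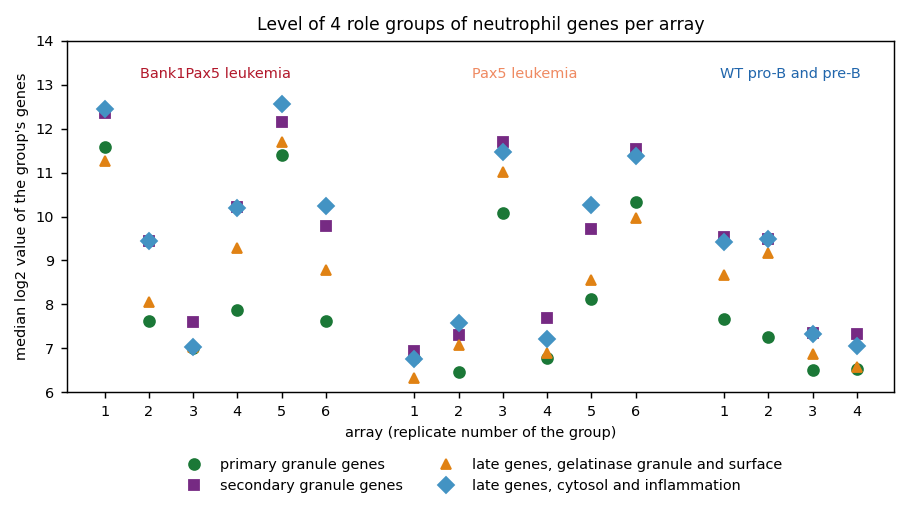
Median log2 value of the measured genes of 4 role groups (vertical axis) on each of the 16 arrays (horizontal axis, replicate number within each group). Primary granule genes (green circles) are above 10 only on Bank1Pax5 arrays 1 and 5 and Pax5 arrays 3 and 6, and secondary granule genes (purple squares) are above 11 on these 4 arrays and at 9.45 to 10.21 on Bank1Pax5 arrays 2, 4 and 6, Pax5 array 5 and WT arrays 1 and 2.

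The WT precursor arrays differed from each other almost only in a small number of genes, and neutrophil genes made up a large share of them. Between WT arrays 1 and 2, 15 of 19938 genes differed by at least 1 log2, as did 15 between arrays 3 and 4, and none of the 31 neutrophil genes was among them. Between array 1 or 2 on the one side and array 3 or 4 on the other, 68 to 76 genes differed by that much (0.341% to 0.381% of all genes), and 19 to 22 of the 31 neutrophil genes were among them, all higher on array 1 or 2. Mmp8, which encodes neutrophil collagenase, was at 9.53, 9.70, 5.62 and 5.46 on WT arrays 1 to 4. Cxcr2, the receptor through which mature neutrophils leave the marrow, was at 8.63, 9.29, 5.40 and 5.54, and Retnlg, a resistin-like gene of late neutrophils, at 11.21, 11.22, 7.47 and 7.41. Primary granule and promyelocyte genes were also higher on arrays 1 and 2. The elastase gene Elane was at 9.47, 8.56, 7.66 and 7.80, and the myeloperoxidase gene Mpo at 9.16, 8.35, 7.41 and 7.35. The cathepsin G gene Ctsg was at 8.01, 7.39, 6.34 and 6.34. Prtn3 was at 7.31, 6.70, 6.26 and 6.34, and Fcnb at 7.17, 7.13, 6.67 and 6.69. The promyelocyte gene Ms4a3 was dim on all 4, at 6.00, 5.96, 5.55 and 5.41. The median level of monocyte and macrophage markers was dim on WT arrays 1 to 4, at 6.49, 6.56, 6.39 and 6.60. Of the brighter genes of that list, Ccr2, the chemokine receptor of inflammatory monocytes, was at 9.64, 9.53, 8.99 and 9.15 and F13a1, a coagulation factor subunit of monocytes, at 8.59, 8.71, 8.46 and 8.29, both higher on arrays 1 and 2, while Cd68, a lysosomal protein of macrophages, was at 9.36, 9.24, 9.37 and 9.37. Eosinophil, basophil and mast cell markers (5.98, 5.99, 5.59 and 5.63) and NK cell markers (8.87, 8.31, 8.20 and 7.92) were also higher on arrays 1 and 2, and erythroid markers (8.81, 9.07, 8.66 and 9.12) were not. The part of these cells in the WT differences was not tested. These WT arrays are the reference of both comparisons below. Values without arrays 1 and 2, or without arrays 3 and 4, are therefore given where a call or a direction changed.

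Set against WT precursors, Bank1Pax5 leukemia had higher values of nearly all neutrophil genes, but few of the differences exceeded the spread between arrays. Of the 31 genes, 29 had a positive log2 difference, with a median of 1.64 beside -0.03 over all genes. In limma's moderated test with Benjamini-Hochberg adjustment over all genes, 2 of the 31 were called higher at an adjusted p under 0.05, against 6.8% of all genes, and 1 was called lower, against 12.8%. The genes called were Cebpa and Ctsg, both higher, and Ptgs2, lower, while 8 of the 31 had an unadjusted p under 0.05, against 32.9% of all genes. The groups did not overlap for the same count of genes (3 of 31, against 19.6% of all genes), again Cebpa and Ctsg above and Ptgs2 below every WT array. Without WT arrays 3 and 4 none of the 31 was called higher, and the log2 difference turned below 0 for Mmp8 (-0.04), Ly6g (-0.01), Cxcr2 (-0.06) and Retnlg (-0.82). Without WT arrays 1 and 2, 1 gene was called higher, which was Mmp9 (3.44, adjusted p = 0.0246). Over all genes 34.8% of the calls were higher, a share of 50.3% after cyclic loess scaling and 16.9% after median centring.

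In Pax5 leukemia the differences from WT precursors were positive for 27 of 31 genes, with a median of 0.60 beside -0.05 over all genes. In the same test 2 of 31 genes were called, against 23.3% of all genes, and 3 had an unadjusted p under 0.05, against 37.5%. The called genes were Mmp9, higher (1 of 31, against 9.53% of all genes), and Ptgs2, lower (1 of 31, against 13.8%). The groups did not overlap for 2 of the 31 genes, against 24.8% of all genes, with Cebpa above and Ptgs2 below every WT array. Over all genes 40.8% of the calls were higher, a share of 50.3% after cyclic loess and 31.2% after median centring. Without WT arrays 3 and 4 the difference turned below 0 for 14 genes, among them Mmp8 (-1.53), Ly6g (-1.46), Cxcr2 (-0.97), Lcn2 (-0.85) and Ltf (-0.75). Both comparisons share the WT arrays.

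Bank1Pax5 minus Pax5 leukemia, the comparison in which only the Bank1 genotype differs by label, had no called neutrophil gene in limma's test (0 of 31, against 1.71% of all genes higher and 5% lower), and none had an unadjusted p under 0.05, against 22.7% of all genes. The groups overlapped for all 31, against 2.7% of all genes without overlap (0.833% higher and 1.87% lower). The log2 difference was positive for 29 of 31, with a median of 0.80 beside 0.02 over all genes, and adjusted p ranged from 0.257 for Ctsg to 0.975 for Gfi1. Over all genes 25.4% of the calls were higher, 43.4% after cyclic loess and 12.4% after median centring. The 95% confidence intervals were wide. For Elane the interval of the log2 difference reached from -1.32 to 2.76, for Ltf from -0.93 to 3.68 and for S100a8 from -1.62 to 2.93, so the 6 arrays of each group leave the size and the direction of these differences undetermined.

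**Figure D3:**
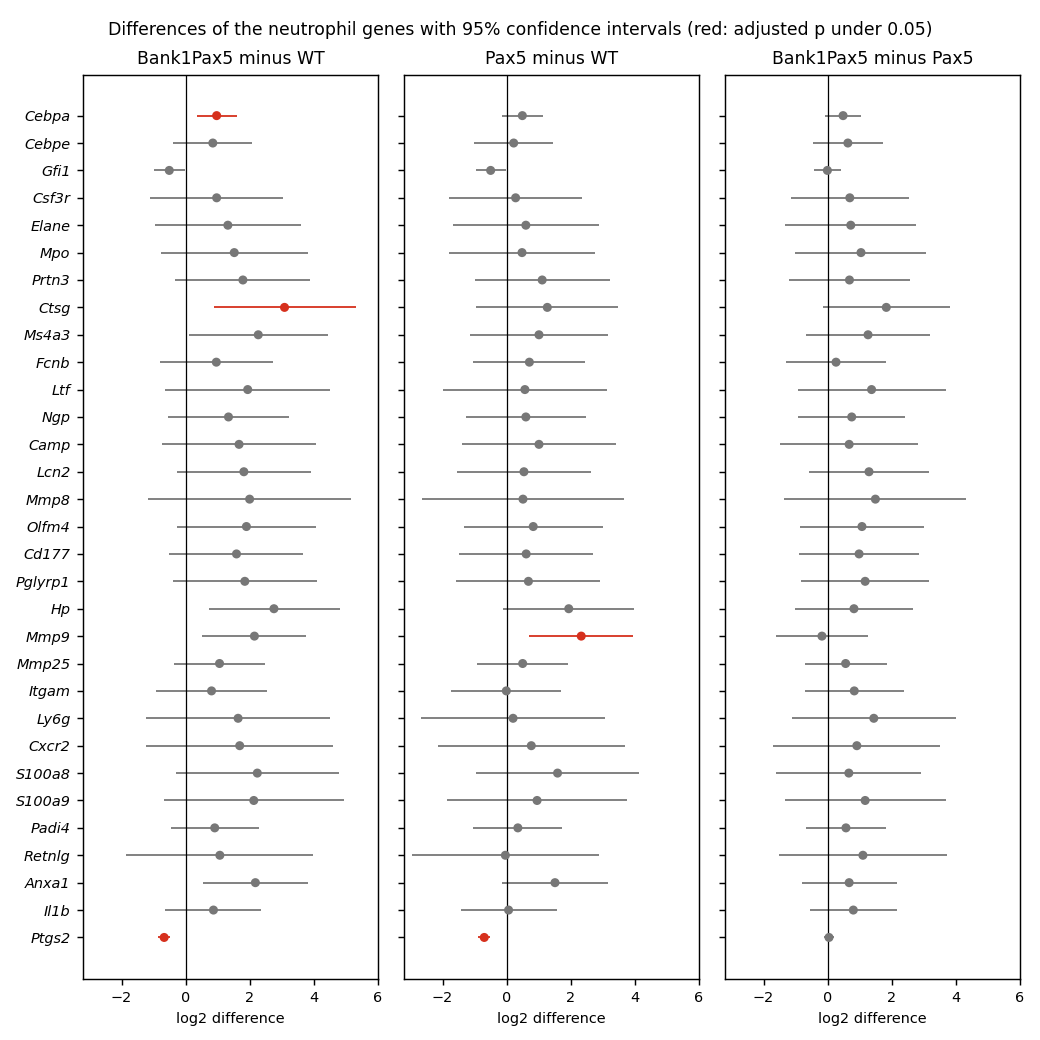
Log2 differences of the 31 neutrophil genes (rows, same order as the heat map) in Bank1Pax5 minus WT, Pax5 minus WT and Bank1Pax5 minus Pax5 (panels), with 95% confidence intervals from limma. Points in red passed an adjusted p of 0.05: Cebpa, Ctsg and Ptgs2 in the left panel, Mmp9 and Ptgs2 in the middle panel, and no gene in the right panel.

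Among the factors of granulocyte maturation, Cebpa was higher in Bank1Pax5 leukemia than in WT precursors. It encodes C/EBPα, which starts the granulocyte programme in progenitors. Its levels ranged from 6.66 to 8.24 with a median of 7.36 in Bank1Pax5 leukemia and from 6.53 to 7.48 with a median of 6.94 in Pax5 leukemia, against 6.51, 6.32, 6.42 and 6.52 in WT precursors. Every array of both leukemia groups lay above all WT arrays, where the gene was dim. The log2 difference from WT was 0.97 (SE 0.29, adjusted p = 0.0302) in Bank1Pax5 leukemia and 0.49 (SE 0.29, adjusted p = 0.234) in Pax5 leukemia. The first call was lost without Bank1Pax5 array 5 (adjusted p = 0.0605) or without WT array 1 (0.0619), 2 (0.0756), 3 (0.0728) or 4 (0.0638). It was also lost without WT arrays 1 and 2 (adjusted p = 0.163) and without WT arrays 3 and 4 (0.175). The same held with a covariate from Y-linked genes (0.144), a block for the replicate number (0.0841) and a fit of these 2 groups alone (0.0585). The adjusted p ranged from 0.00385 to 0.175 over all alternatives. The highest Cebpa level, 8.24, was on Bank1Pax5 array 4, which was not among the arrays with high granule genes but had a monocyte and macrophage marker level of 10.21, close to the highest of 10.24 on array 5. Stem and progenitor markers (8.04) and megakaryocyte markers (11.76) also had their highest Bank1Pax5 level on array 4. The part of these marker levels in the Cebpa result was not tested.

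Cebpe, which encodes C/EBPε of the myelocyte stage, ranged from 7.41 to 10.11 in Bank1Pax5 leukemia and from 6.83 to 9.36 in Pax5 leukemia, against 7.59 to 7.74 in WT precursors. Its highest values stood on Bank1Pax5 arrays 1 and 5 and Pax5 arrays 3 and 6, and the log2 differences from WT were 0.85 (SE 0.57) and 0.22 (SE 0.57). Csf3r, the G-CSF receptor gene, ranged from 6.45 to 10.94 in Bank1Pax5 and from 6.46 to 10.19 in Pax5 leukemia, against 8.29, 8.26, 6.60 and 6.48 in WT precursors. Gfi1, a repressor that acts in neutrophil and also in lymphoid precursors, was the exception in direction. It had means of 7.63 ± 0.48 (SD, n = 6) in Bank1Pax5 leukemia and 7.64 ± 0.33 (SD, n = 6) in Pax5 leukemia, against 8.14 ± 0.09 (SD, n = 4) in WT precursors. The log2 differences of Gfi1 were -0.51 (SE 0.22, adjusted p = 0.125) and -0.50 (SE 0.22, adjusted p = 0.119), and neither passed. In Bank1Pax5 leukemia Gfi1 did pass as lower without Bank1Pax5 array 1 (adjusted p = 0.0352) and with median centring (0.0495). In Pax5 leukemia it did so with array weights (0.0177) and in a fit of the 2 groups alone (0.0396). Over all alternatives the adjusted p ranged from 0.0352 to 0.474 and from 0.0177 to 0.464.

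The primary granule genes reached their highest values on the same 4 leukemia arrays, with the exception of Ctsg. Elane, the neutrophil elastase gene, ranged from 7.49 to 12.33 with a median of 8.90 in Bank1Pax5 leukemia and from 7.21 to 11.39 with a median of 8.38 in Pax5 leukemia, against 9.47, 8.56, 7.66 and 7.80 in WT precursors. Prtn3, the gene of proteinase 3, ranged from 6.53 to 11.05 in Bank1Pax5 and from 6.02 to 9.93 in Pax5 leukemia, against 7.31, 6.70, 6.26 and 6.34 in WT precursors. Mpo, the myeloperoxidase gene, ranged from 7.67 to 12.10 and from 6.79 to 11.07, against 9.16, 8.35, 7.41 and 7.35 in WT. All 3 overlapped between the groups. Their log2 differences from WT were 1.32 (SE 1.07), 1.79 (SE 0.99) and 1.52 (SE 1.07) in Bank1Pax5 leukemia and 0.60, 1.11 and 0.48 in Pax5 leukemia.

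Ctsg, which encodes cathepsin G, was higher in Bank1Pax5 leukemia than in WT precursors. Its 6 Bank1Pax5 levels were 12.28, 8.37, 11.19, 8.47, 11.99 and 8.38 on arrays 1 to 6, its Pax5 levels ranged from 6.46 to 10.72 with a median of 7.70, and its WT levels were 8.01, 7.39, 6.34 and 6.34. Every Bank1Pax5 array lay above all WT arrays, while Pax5 leukemia overlapped with WT. The log2 difference from WT was 3.09 (SE 1.04, adjusted p = 0.0489, higher in 6 of 6 arrays) in Bank1Pax5 leukemia and 1.27 (SE 1.04, adjusted p = 0.391) in Pax5 leukemia. Bank1Pax5 minus Pax5 was 1.83 (SE 0.93, adjusted p = 0.257). The call lay at the threshold and was lost without Bank1Pax5 array 1 (adjusted p = 0.0962), 3 (0.0825) or 5 (0.0973), without WT array 1 (0.0652), 2 (0.0829), 3 (0.126) or 4 (0.130), and without Pax5 array 1 (0.0529), 4 (0.0526) or 5 (0.0600). The adjusted p of Ctsg was 0.111 without WT arrays 1 and 2 and 0.374 without WT arrays 3 and 4. With the covariate from Y-linked genes it was 0.0885, and with the replicate block 0.126. Over all alternatives its adjusted p ranged from 0.00506 to 0.374.

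On Bank1Pax5 array 3 cathepsin G was high without most other genes of its granule. Relative to each gene's own median over the 16 arrays, Ctsg stood at 2.85 and Mpo at 1.05 on that array, whereas Elane was at -1.16, Prtn3 at -0.70, Ms4a3 at -0.46 and Fcnb at -0.65. The secondary granule genes on the same array were all below their medians, from -1.13 for Cd177 to -3.44 for Mmp8. On Bank1Pax5 arrays 1 and 5 Ctsg, Mpo, Elane and Prtn3 were all high together. Ms4a3, a gene of granulocyte and monocyte progenitors, ranged from 5.76 to 11.01 in Bank1Pax5 leukemia and from 5.39 to 8.74 in Pax5 leukemia, against 5.41 to 6.00 in WT precursors. Its log2 difference in Bank1Pax5 leukemia was 2.27 (SE 1.01, adjusted p = 0.134), and the adjusted p ranged from 0.0219 to 0.472 over the alternatives. Fcnb, which encodes ficolin B, ranged from 6.39 to 10.13 and from 6.42 to 9.76, against 6.67 to 7.17 in WT.

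**Figure D4:**
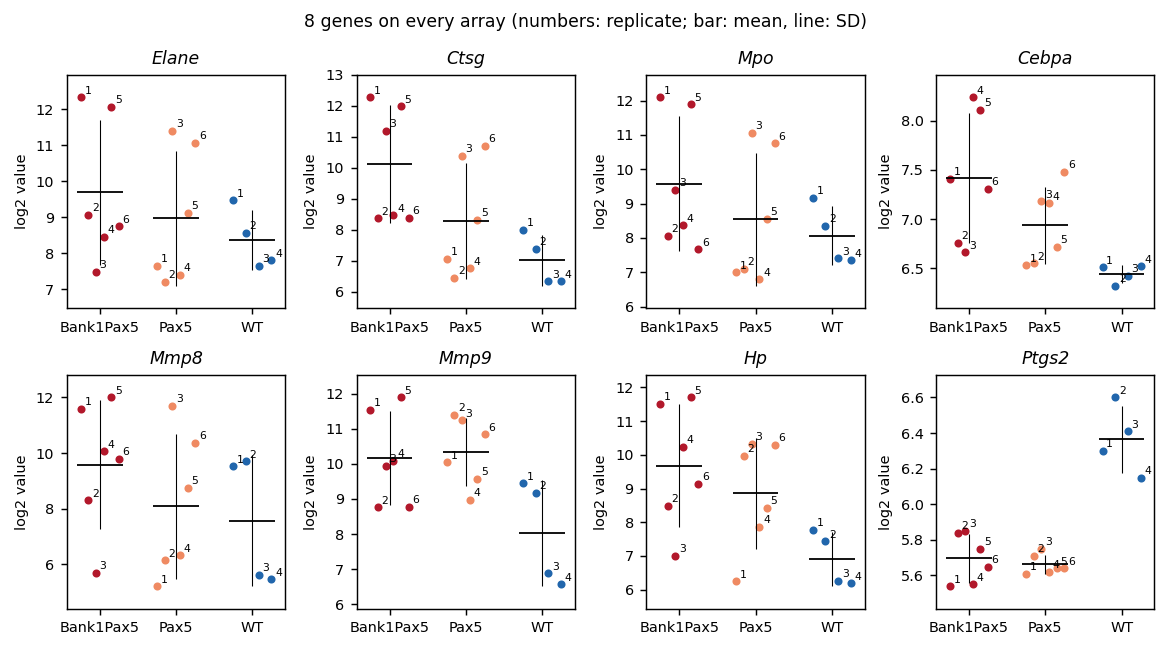
Log2 values of 8 genes on every array, by group (Bank1Pax5, Pax5 and WT from left to right), with replicate numbers beside the points, a bar at the mean and a line for the SD. Elane is high on Bank1Pax5 arrays 1 and 5 and Pax5 arrays 3 and 6, Ctsg is also high on Bank1Pax5 array 3 (11.19), Mmp9 is highest in Pax5 leukemia on array 2 (11.39), and Ptgs2 lies between 5.54 and 5.85 in leukemia, below all WT arrays.

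The promoters of genes that moved together are shown for the primary granule genes Elane, Prtn3, Mpo and Ctsg, for the secondary granule gene Ngp and the late gene S100a8, and for Ptgs2, which did not follow them. Each is the 250 bases before the annotated start in RefSeq's mouse annotation (GRCm38.p6), written 5′ to 3′ on the gene's strand, with capitals where a C/EBP-type motif (TTNNGNAA) or a PU.1-type motif (AGGAAG) matched on either strand. C/EBP factors and PU.1 are the main activators of granulocyte genes.
Elane promoter, chr10:79886062-79886311, plus strand: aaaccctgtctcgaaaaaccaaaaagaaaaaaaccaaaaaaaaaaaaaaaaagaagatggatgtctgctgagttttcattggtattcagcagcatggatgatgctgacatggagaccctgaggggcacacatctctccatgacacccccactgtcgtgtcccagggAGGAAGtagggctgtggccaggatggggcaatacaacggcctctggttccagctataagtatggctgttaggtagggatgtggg
Prtn3 promoter, chr10:79879417-79879666, plus strand: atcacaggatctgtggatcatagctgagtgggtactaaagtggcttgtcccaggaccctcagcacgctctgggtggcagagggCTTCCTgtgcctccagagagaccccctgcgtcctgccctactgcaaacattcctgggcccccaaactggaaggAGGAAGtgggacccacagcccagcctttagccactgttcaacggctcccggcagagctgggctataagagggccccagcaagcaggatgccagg
Mpo promoter, chr11:87793534-87793783, plus strand: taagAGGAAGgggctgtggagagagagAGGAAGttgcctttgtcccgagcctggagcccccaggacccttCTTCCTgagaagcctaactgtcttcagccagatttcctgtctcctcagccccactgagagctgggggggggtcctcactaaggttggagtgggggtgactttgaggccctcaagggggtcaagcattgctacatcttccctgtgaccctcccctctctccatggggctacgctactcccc
Ctsg promoter, chr14:56102575-56102824, minus strand: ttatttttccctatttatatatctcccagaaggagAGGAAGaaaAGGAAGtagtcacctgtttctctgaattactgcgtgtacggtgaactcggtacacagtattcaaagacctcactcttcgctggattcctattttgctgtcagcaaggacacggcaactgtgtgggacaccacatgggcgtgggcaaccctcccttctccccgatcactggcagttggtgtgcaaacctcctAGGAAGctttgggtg
Ngp promoter, chr9:110419558-110419807, plus strand: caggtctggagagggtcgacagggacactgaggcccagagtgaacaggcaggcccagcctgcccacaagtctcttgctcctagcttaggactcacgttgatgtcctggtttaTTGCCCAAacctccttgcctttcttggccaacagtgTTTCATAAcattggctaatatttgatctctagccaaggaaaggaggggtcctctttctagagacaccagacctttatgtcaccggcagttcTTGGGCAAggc
S100a8 promoter, chr3:90668821-90669070, plus strand: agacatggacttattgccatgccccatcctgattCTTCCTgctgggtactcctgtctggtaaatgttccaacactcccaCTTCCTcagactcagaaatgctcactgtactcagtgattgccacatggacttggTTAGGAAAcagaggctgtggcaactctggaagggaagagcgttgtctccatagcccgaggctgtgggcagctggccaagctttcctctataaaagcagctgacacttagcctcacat
Ptgs2 promoter, chr1:150099781-150100030, plus strand: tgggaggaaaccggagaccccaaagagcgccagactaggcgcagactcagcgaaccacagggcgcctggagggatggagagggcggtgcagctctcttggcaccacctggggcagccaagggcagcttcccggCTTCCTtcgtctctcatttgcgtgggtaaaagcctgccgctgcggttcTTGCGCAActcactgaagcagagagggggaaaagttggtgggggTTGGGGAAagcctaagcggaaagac
The 4 primary granule promoters held 1 (Elane), 2 (Prtn3), 3 (Mpo) and 3 (Ctsg) PU.1-type matches and no C/EBP-type match in this window. Ngp held 3 C/EBP-type matches and no PU.1-type match, S100a8 held 1 and 2, and Ptgs2 held 2 and 1. A promoter was listed for 30 of the 33 genes, and not for Cebpe, Hp and Mmp9. Of these 30, which include Fpr1 and Fpr2, 19 (63.3%) held a C/EBP-type match against 36.9% of 27025 promoters of the same length, and 20 (66.7%) held a PU.1-type match against 29.2%. Both were present in 10 of 30 (33.3%) against 11.4% of all promoters. A match is a description of these letters and not a binding site, and the promoters to print were chosen after the values were seen.

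Secondary granule genes were likewise highest on Bank1Pax5 arrays 1 and 5 and Pax5 arrays 3 and 6. Ltf, the lactoferrin gene, ranged from 7.84 to 12.71 with a median of 10.31 in Bank1Pax5 leukemia and from 6.90 to 11.89 with a median of 8.86 in Pax5 leukemia, against 10.09, 9.87, 7.36 and 7.33 in WT precursors. Ngp, the neutrophilic granule protein gene, ranged from 10.04 to 13.31 and from 9.56 to 13.17, against 12.03, 12.01, 9.60 and 9.60 in WT. Camp, which encodes the cathelicidin antimicrobial peptide, ranged from 7.59 to 12.36 and from 7.18 to 11.82, against 8.72, 9.12, 7.47 and 7.50 in WT. In each of these genes WT arrays 1 and 2 lay well inside the leukemia ranges and WT arrays 3 and 4 at or near their lower end. None of the 9 secondary granule genes passed in any comparison, and the log2 differences from WT ranged from 1.34 (Ngp, SE 0.88) to 2.76 (Hp, SE 0.96) in Bank1Pax5 leukemia and from 0.51 (Mmp8, SE 1.48) to 1.94 (Hp, SE 0.96) in Pax5 leukemia.

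Lcn2, whose product lipocalin 2 sequesters bacterial iron carriers, ranged from 9.81 to 13.57 in Bank1Pax5 and from 8.95 to 12.91 in Pax5 leukemia, against 8.95 to 11.80 in WT precursors. Olfm4, which marks a subset of neutrophils, ranged from 6.57 to 11.32 and from 6.15 to 10.63, against 6.17 to 8.02 in WT. Pglyrp1, a peptidoglycan recognition protein, ranged from 7.86 to 12.69 and from 7.31 to 11.55, against 7.76 to 9.81 in WT. Cd177, a neutrophil surface glycoprotein, ranged from 7.25 to 11.75 and from 6.90 to 10.60, against 7.10 to 8.73 in WT. Mmp8 had its lowest value at 5.70 in Bank1Pax5 leukemia and at 5.22 in Pax5 leukemia. It spanned 6.30 and 6.47 log2 within these groups, beside a log2 difference of 1.49 (SE 1.33) between them.

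Hp, the haptoglobin gene, departed from the other secondary granule genes on 1 array. It had a median of 9.69 and a highest value of 11.70 in Bank1Pax5 leukemia, and a median of 9.20 and a highest value of 10.33 in Pax5 leukemia, against 7.77, 7.44, 6.26 and 6.19 in WT precursors. On Pax5 array 2, Hp was 1.51 above its own median over the 16 arrays while the other 8 secondary granule genes lay 1.48 to 2.99 below theirs. Mmp9 was also high on that array, 1.63 above its median. The adjusted p of Hp in Bank1Pax5 minus WT was 0.0557, with a range of 0.0142 to 0.411 over the alternatives.

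The late genes of gelatinase granules and the cell surface were called in 1 case. Mmp9, the gene of gelatinase B, ranged from 8.76 to 11.89 with a median of 10.01 in Bank1Pax5 leukemia and from 8.98 to 11.39 with a median of 10.44 in Pax5 leukemia, against 9.45, 9.18, 6.88 and 6.57 in WT precursors. In Pax5 leukemia 5 of 6 arrays lay above all WT arrays. The log2 difference from WT was 2.33 (SE 0.76, adjusted p = 0.0387) in Pax5 leukemia and 2.15 (SE 0.76, adjusted p = 0.0608) in Bank1Pax5 leukemia. The Pax5 call was lost without Pax5 array 2 (adjusted p = 0.0760), 3 (0.0688) or 6 (0.0698) and without WT array 3 (0.122) or 4 (0.145). It was also lost with the replicate block (0.0899). Without WT arrays 3 and 4 the Pax5 difference was 1.03 (adjusted p = 0.537), and over all alternatives the adjusted p ranged from 0.0165 to 0.537. Relative to its own median over the 16 arrays, Mmp9 stood at 0.27 and 1.63 on Pax5 arrays 1 and 2, whereas Mmp8 stood at -3.92 and -2.99 relative to its own.

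Ly6g, the surface antigen by which mouse neutrophils are sorted, ranged from 7.03 to 12.66 with a median of 10.38 in Bank1Pax5 leukemia and from 6.33 to 12.11 with a median of 8.10 in Pax5 leukemia, against 10.32, 10.27, 7.25 and 6.71 in WT precursors. Cxcr2 ranged from 5.47 to 11.69 and from 5.32 to 11.02 in these leukemia groups, and its WT values are given above. Itgam, which encodes the CD11b integrin of neutrophils and monocytes, ranged from 7.16 to 11.18 and from 6.97 to 10.31, against 7.92 to 8.95 in WT. Mmp25, a membrane-anchored protease, ranged from 6.02 to 9.05 and from 5.66 to 8.35, against 5.68 to 6.61 in WT, where it was dim on all arrays. The log2 differences from WT of these 4 genes lay between 0.81 and 1.69 in Bank1Pax5 leukemia and between -0.01 and 0.77 in Pax5 leukemia, and none passed.

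S100a8 and S100a9, which encode the 2 chains of calprotectin, were high on the same arrays. S100a8 ranged from 8.32 to 12.99 with a median of 11.11 in Bank1Pax5 leukemia and from 7.79 to 12.83 with a median of 10.53 in Pax5 leukemia, against 10.65, 10.72, 7.57 and 7.05 in WT precursors. S100a9 ranged from 7.85 to 13.02 and from 7.05 to 12.75, against 10.78, 10.76, 7.33 and 7.33 in WT. In Bank1Pax5 leukemia S100a8 differed from WT by 2.24 log2 (SE 1.19, adjusted p = 0.207) and S100a9 by 2.13 (SE 1.32, adjusted p = 0.283). Anxa1, whose product restrains neutrophil recruitment, ranged from 9.24 to 12.55 in Bank1Pax5 and from 8.34 to 11.64 in Pax5 leukemia, against 9.42, 9.50, 7.94 and 7.70 in WT. Its log2 difference in Bank1Pax5 leukemia was 2.18 (SE 0.77, adjusted p = 0.0608), and the adjusted p ranged from 0.0151 to 0.501 over the alternatives.

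Retnlg ranged from 7.03 to 12.74 in Bank1Pax5 and from 6.76 to 12.48 in Pax5 leukemia. Padi4, the enzyme that citrullinates histones in neutrophil extracellular traps, ranged from 5.72 to 8.75 and from 5.58 to 7.74, against 5.69 to 6.30 in WT precursors, and was dim in the mean of all 3 groups. Il1b, the interleukin 1β gene that activated neutrophils and monocytes express, ranged from 5.99 to 9.60 and from 5.97 to 8.29, against 7.10, 7.61, 5.93 and 6.03 in WT. None of these 3 passed in any comparison.

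Ptgs2, which encodes the inducible cyclooxygenase COX-2, behaved unlike the other members. It was lower in both leukemia groups, at 5.54 to 5.85 in Bank1Pax5 leukemia and 5.61 to 5.75 in Pax5 leukemia, against 6.30, 6.60, 6.41 and 6.15 in WT precursors. The groups did not overlap, and the log2 difference from WT was -0.67 (SE 0.08, adjusted p = 7.54e-05) in Bank1Pax5 leukemia and -0.70 (SE 0.08, adjusted p = 4.31e-05) in Pax5 leukemia. Over the alternatives that kept the gene, the adjusted p ranged from 1.8e-05 to 0.00283 in Bank1Pax5 leukemia and from 4.37e-06 to 0.00265 in Pax5 leukemia. All values lay under the dim level, so the size of this difference is not well bounded. On Bank1Pax5 arrays 1 and 5, where Il1b was at 9.16 and 9.60, Ptgs2 was at 5.54 and 5.75.

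Other neutrophil genes outside the list followed the same arrays in part. Of those called, Trem1, Cst7 and Serpinb1a were also high on arrays where granule genes were low. Of 17 measured stage and surface genes, 4 were higher and none lower in Bank1Pax5 leukemia than in WT precursors, and 3 and none in Pax5 leukemia, against 6.8% and 9.53% of all genes called higher. None was called between the leukemia groups. Lrg1, a glycoprotein of neutrophil granules, had log2 differences of 3.47 (SE 0.63, adjusted p = 0.00129) and 3.02 (SE 0.63, adjusted p = 0.00307) from WT in Bank1Pax5 and Pax5 leukemia. Trem1, an amplifying receptor of neutrophils and monocytes, had differences of 2.37 (SE 0.74, adjusted p = 0.0368) and 3.19 (SE 0.74, adjusted p = 0.00664), with 10.42 on Bank1Pax5 array 3 and 10.49 and 10.10 on Pax5 arrays 2 and 4, where granule genes were low. Chil3, a lectin of immature neutrophils and macrophages, was at 10.85 and 10.92 on Bank1Pax5 arrays 1 and 5 and at 11.03 and 10.28 on Pax5 arrays 3 and 6, and did not pass (adjusted p = 0.276 and 0.565 against WT). The decoy receptor Il1r2 was higher in Bank1Pax5 leukemia (2.80, SE 0.70, adjusted p = 0.0114). Cst7, an inhibitor of granule proteases, was higher in both groups (1.37, SE 0.43, and 1.46, SE 0.43). On arrays 1 to 6 Cst7 was at 10.35, 8.59, 9.88, 8.73, 9.63 and 10.52 in Bank1Pax5 leukemia. In Pax5 leukemia it was at 10.35, 9.11, 10.73, 8.94, 9.89 and 9.20.

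Among 6 genes of granule packing and protease control, Serpinb1a, the inhibitor of elastase and proteinase 3 in the cytosol, was higher by 1.83 (SE 0.39, adjusted p = 0.00439) in Bank1Pax5 and by 2.22 (SE 0.39, adjusted p = 0.00100) in Pax5 leukemia than in WT precursors. Srgn, the serglycin proteoglycan on which granule proteins are packed, was lower by a log2 difference of -0.23 (SE 0.06) in Pax5 leukemia than in WT, and higher in Bank1Pax5 than in Pax5 leukemia (0.30, SE 0.05, adjusted p = 0.00602, with means of 13.06 and 12.76). It was the only call between the leukemia groups in these 4 lists, while 1.71% of all genes were called higher and 5% lower in that comparison. Of 5 NADPH oxidase genes, which serve the respiratory burst, Rac2 was lower in Bank1Pax5 leukemia (-0.66, SE 0.14) and Ncf4 higher in Pax5 leukemia (0.95, SE 0.32), each against WT. Of 5 myeloid transcription factors, Cebpb was higher in Bank1Pax5 leukemia (0.71, SE 0.23, adjusted p = 0.0421) and none passed in Pax5 leukemia. Against WT, 6.8% and 9.53% of all genes were called higher in Bank1Pax5 and Pax5 leukemia, and 12.8% and 13.8% lower. A call of 1 gene in a list of 5 or 6 cannot be set apart from these shares.

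Markers of other cells moved with the groups as well. Of 15 monocyte and macrophage markers, 11 were higher in Bank1Pax5 and 7 in Pax5 leukemia than in WT precursors, with none lower, against 6.8% and 9.53% of all genes called higher. Their median level ranged from 7.20 to 10.24 in Bank1Pax5 leukemia and from 7.31 to 8.56 in Pax5 leukemia, against 6.39 to 6.60 in WT. Megakaryocyte markers were called higher in 6 and 5 of 6, with levels from 9.35 to 11.76 and from 8.63 to 11.31, against 7.03 to 7.23. B cell precursor markers were called lower in 2 and 2 of 13, a share near the 12.8% and 13.8% of all genes called lower, with levels from 8.61 to 11.76 and from 7.60 to 12.06, against 11.85 to 12.12. On the 4 arrays with the highest neutrophil genes the B cell precursor level was 10.15 and 9.98 (Bank1Pax5 arrays 1 and 5) and 7.60 and 11.22 (Pax5 arrays 3 and 6). The monocyte and macrophage level on these arrays was 9.08, 10.24, 8.03 and 8.56, while Bank1Pax5 array 4 had 10.21 with a neutrophil gene level of 9.04. Erythroid markers were at 10.48, 9.79 and 9.96 on Bank1Pax5 arrays 1, 4 and 5 and at 6.72 to 7.46 on the other 3, at 6.80 to 8.04 in Pax5 leukemia, and at 8.66 to 9.12 in WT precursors. Array values have no true zero, so no marker can be called absent, and the part of any of these cells in the neutrophil gene values was not tested.

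Of the remaining marker lists, stromal and endothelial markers were called higher in 8 and 8 of 13 genes in Bank1Pax5 and Pax5 leukemia against WT precursors, and NK cell markers lower in 5 and 7 of 8. Eosinophil, basophil and mast cell markers were higher in 2 and 0 of 10, stem and progenitor markers higher in 2 and 2 of 9, erythroid markers lower in 0 and 1 of 6, and T cell markers lower in 0 and 1 of 8. Beside these counts, 6.8% and 9.53% of all genes were called higher and 12.8% and 13.8% lower. The erythroid and T cell counts in Pax5 leukemia are 1 gene each, a share near that of all genes. Between the leukemia groups, 1 monocyte and macrophage, 2 eosinophil, basophil and mast cell, 2 T cell and 2 NK cell markers were called higher in Bank1Pax5 leukemia, and none of the other 5 marker lists held a call. In that comparison 1.71% of all genes were called higher and 5% lower.

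**Figure D5:**
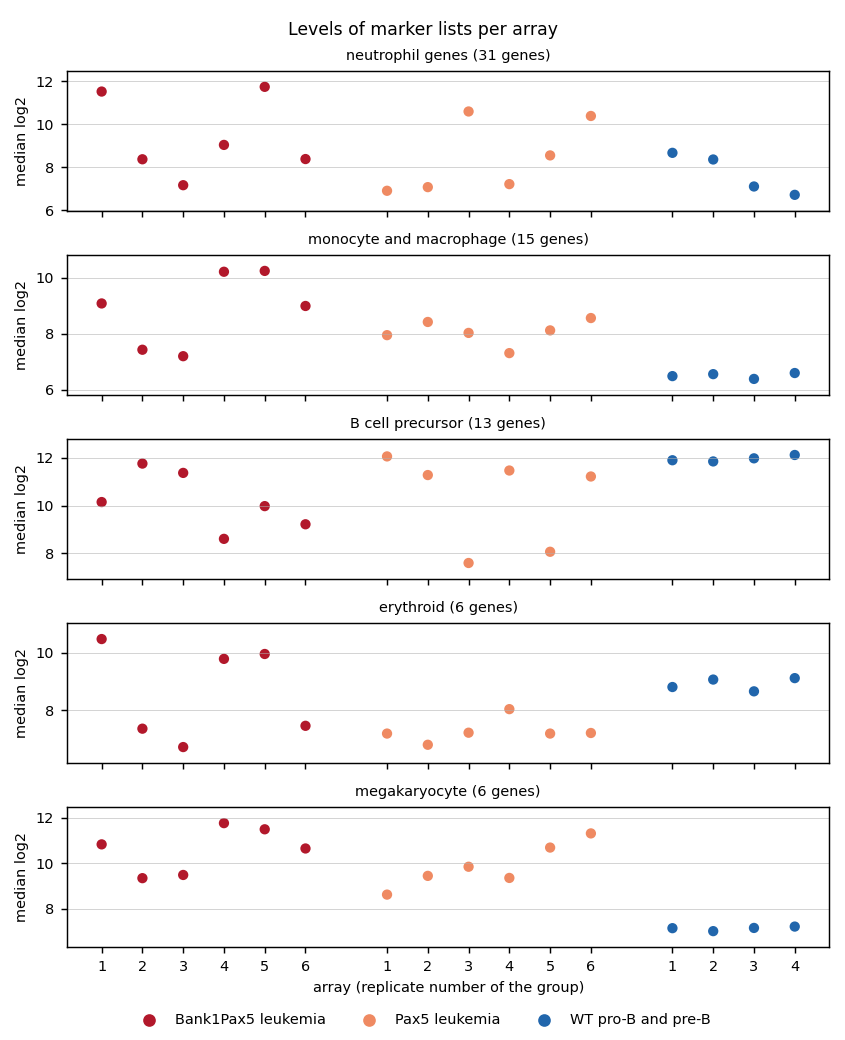
Median log2 level of the measured genes of 5 lists (panels, each with its own vertical axis) on each of the 16 arrays (horizontal axis, replicate number within each group), coloured by group. Neutrophil genes peak on Bank1Pax5 arrays 1 and 5 and Pax5 arrays 3 and 6, monocyte and macrophage markers are lowest in WT (6.39 to 6.60), and B cell precursor markers are lowest on Pax5 arrays 3 and 5 (7.60 and 8.07).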

How the data were processed

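RNA of 16 bone marrow samples was hybridised to 1-colour oligonucleotide arrays. The authors deposited log2 probe set values made with RMA through the oligo package, per the submitters' processing notes. The sources used here name no versions, filters, genome build or batches. Values lay between 3.82 and 14.32, with array medians from 6.58 to 6.71, and were used without further scaling. Precision is limited by how many arrays there are.

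The platform annotation gave 1 gene to 21789 of 35556 probe sets, several to 1621 and none to 12146. Symbols were updated by gene record where one exists, which 91 lacked. The probe set with the highest mean was kept for the 999 genes with several, which left 19938 genes.

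Group means were fitted over the 16 arrays in limma (version 3.58.1, R 4.3.3) with empirical Bayes moderation. Tests were two-sided, calls needed a Benjamini-Hochberg p under 0.05 across the 19938 genes, and SE is the moderated standard error. List levels are medians of the log2 values of the measured genes, per array. All 33 listed genes were to be named, and up to 4 called genes of each further list. The genes and lists were chosen with earlier results of these data known. Alternatives were averaged probe sets, a dim-probe filter, median centring, cyclic loess, array weights, robust moderation with a variance trend, a block for the replicate number, fits of 2 groups alone, a covariate from Y-linked genes and leaving out each array. Leaving out WT arrays 1 and 2, or 3 and 4, was added after seeing the data. The fit was tested on simulated data with 1 spread per gene for all groups and independent genes, so unequal spread was not covered. The replicate numbers were not taken to pair the mice, since same-numbered arrays did not all deviate together (correlations from -0.379 to 0.321). So few pairs cannot exclude a step shared by number. Nothing says how the replicates were taken beyond their labels, so p-values measure the spread between these samples. The comparison of proteins that was planned was not made.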

Additional observations from a re-analysis of the deposited data

How the results depend on the processing

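The number of neutrophil genes called higher in Bank1Pax5 leukemia than in WT precursors was 2, and it was 5 with the dim-probe filter or median centring, 4 with cyclic loess, 6 with array weights, 1 with only the 2 groups compared or with Y-linked genes as a covariate, and 0 with the replicate block. It was 1 without WT arrays 1 and 2, 0 without WT arrays 3 and 4, and 0 to 5 when 1 array was left out. The number called lower was 1, against 0 with the dim-probe filter, which removes Ptgs2, 2 with median centring and 1 to 2 when 1 array was left out. For Pax5 leukemia minus WT the numbers were 1 higher and 1 lower. They became 2 and 2 with array weights, 0 higher with the replicate block or without WT arrays 3 and 4, 0 to 1 higher when 1 array was left out, 0 lower with the dim-probe filter and 2 lower with only the 2 groups compared. Between the leukemia groups no alternative gave a call among the 31 genes.

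Over all genes, 3899 calls in Bank1Pax5 minus WT became 6416 with median centring, 6486 with array weights and 2542 with the replicate block, and 1813 and 1331 without WT arrays 1 and 2 or 3 and 4. The 4655 calls of Pax5 minus WT became 8104 with array weights, 2561 and 1548 without those pairs of WT arrays, and 3072 to 5560 without 1 array, the lowest without WT array 4. The 1336 calls between the leukemia groups became 446 with only these groups, 696 with the replicate block, 731 and 735 without the pairs of WT arrays, and 725 to 1742 without 1 array. They were 725 without Bank1Pax5 array 5, 870 without Pax5 array 4 and 846 without Pax5 array 5. The cause of these shifts was not tested.

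Directions turned mostly in Pax5 minus WT, and never for a called gene. With the covariate from Y-linked genes the log2 differences were -0.43 (Ltf), -0.40 (Ngp), -0.40 (Lcn2), -0.74 (Mmp8), -0.34 (Pglyrp1), -0.69 (Ly6g), -0.03 (Cxcr2) and -0.37 (S100a9). With the replicate block they were -0.01 (Csf3r), -0.02 (Ltf), -0.04 (Lcn2), -0.19 (Mmp8), -0.51 (Ly6g) and -0.20 (Il1b). Without WT arrays 1 and 2 they were 0.38 (Itgam) and 1.85 (Retnlg). Without WT arrays 3 and 4 they were -0.58 (Csf3r), -0.04 (Elane), -0.20 (Mpo), -0.75 (Ltf), -0.62 (Ngp), -0.85 (Lcn2), -1.53 (Mmp8), -0.06 (Cd177), -0.20 (Pglyrp1), -1.46 (Ly6g), -0.97 (Cxcr2), -0.10 (S100a8), -0.77 (S100a9) and -0.63 (Il1b), and in Bank1Pax5 minus WT -0.04 (Mmp8), -0.01 (Ly6g), -0.06 (Cxcr2) and -0.82 (Retnlg). Leaving out 1 array gave ranges that include 0 for Itgam (-0.40 to 0.27), Retnlg (-0.67 to 0.59), Mmp8 (-0.21 to 1.22), Ly6g (-0.45 to 0.76), Il1b (-0.25 to 0.38), Csf3r (-0.22 to 0.58), Cebpe (-0.08 to 0.42) and Mpo (-0.02 to 0.85) in Pax5 minus WT. Between the leukemia groups they did so for Fcnb (-0.19 to 0.69), Gfi1 (-0.15 to 0.11) and Mmp9 (-0.52 to 0.10). There, Gfi1 was 0.04 with cyclic loess and 0.16 with array weights, Mmp9 0.31 with array weights, and Ptgs2 -0.01 with cyclic loess and -0.02 with median centring.

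The labels give the replicate numbers no further meaning, and whether arrays of the same number share a step cannot be decided from so few pairs. In Bank1Pax5 minus WT, 3 of 4 pairs of same-numbered arrays had correlated deviations above 0.1, in Pax5 minus WT 1 of 4 and between the leukemia groups 2 of 6, and not every array correlated best with its own number.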
